A study of Homo sapiens with 8 samples.

Results

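The 10 genes described here encode G3BP1 and proteins that act around it in stress granules. These genes are termed nucleators here, although USP10 opposes condensation. They are G3BP1, G3BP2, CAPRIN1, USP10, TIA1, TIAL1, FMR1, FXR1, ATXN2 and UBAP2L. They were chosen by symbol, by a rule that uses none of the measured values, from the 20165 gene regions counted in each library. Earlier results of these data were known when the list was written. Every one of the 10 had a region of its own, was counted in all 8 libraries and passed the filter on low counts in both comparisons.

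Stress granules are cytoplasmic condensates of stalled initiation complexes, mRNA and RNA-binding proteins that form when translation initiation is blocked. G3BP1 and its paralog G3BP2 bind RNA released from polysomes and act as the central scaffold. CAPRIN1 and USP10 compete for the same surface of G3BP, CAPRIN1 promoting condensation and USP10 opposing it, while TIA1 and TIAL1, FMR1 and FXR1, ATXN2 and UBAP2L add further RNA-binding and low-complexity contacts.

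Ribosome profiling (Ribo-seq) sequences the mRNA fragments that ribosomes protect from RNase, and was performed in OVCAR3, an established human ovarian carcinoma line. RACK1 is a scaffold bound to the 40S head that can carry mono(ADP-ribose), a modification termed MARylation. The design addressed what loss of the RACK1 sites, or loss of the eraser TARG1 (gene OARD1), does to ribosome occupancy. The 4 groups held 2 libraries each.

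In the RACK1-WT and RACK1-Mut groups, a stable lentiviral pTRIPZ shRNA depleted endogenous RACK1, and a pInducer20 construct re-expressed HA-tagged RACK1, either wild type or with its MARylation sites substituted. Both of these groups received 1 µg/ml doxycycline for 48 h. The siControl and siTARG1 groups were OVCAR3 cells transfected for 48 h with 30 nM of a control siRNA or of an siRNA to OARD1. No stressor is given for any library, and granules were not measured in these samples. Which OARD1 siRNA was used for profiling is not given in the sources used here, and the re-expressing lines carry vectors that the siRNA-treated cells lack. The labels do not say whether the libraries of a group came from separate cultures, and the methods state in general terms that sequencing experiments used independent biological samples. The p-values measure the spread between these libraries.

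Coding footprints per library ranged from 3100947 (siControl 2) to 6604190 (RACK1-WT 1). OARD1, the targeted gene, had 121.3 and 69.14 normalized footprints in siControl and 5.827 and 6.747 in siTARG1 (log2 fold change -3.94, SE 0.557, DESeq2 adjusted p = 9.31e-11). The label of the knockdown therefore matched its target. The 10 ovarian carcinoma markers were detected in every group. Their summed level was 11000 to 11700 per 1000000 coding footprints in RACK1-WT, RACK1-Mut and siControl and 7557 to 8697 in siTARG1. Behind similar sums, single markers differed between the RACK1 and siRNA experiments. MSLN had 3084 and 3191 raw coding counts in RACK1-WT, the deeper group, and 285 and 205 in siControl. KRT7 had 14250 and 14390 against 2806 and 1934. MUC16 went the other way, with 8382 and 5590 against 11994 and 8070. In siTARG1, 6 of the 10 markers were called, against 16.4% of all genes tested, among them CDH1 at 1.64 and KRT18 at -1.24 on the log2 scale. Markers of blood, endothelium and fibroblasts summed to at most 53.18 per 1000000 in any library, and the T cell gene CD3E was at 0 in all 8. The part of the lower marker sum in the siTARG1 results was not tested.

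Relative to coding length, the nucleators spanned a 12.27-fold range in RACK1-WT cells. CAPRIN1 was the highest, with 378.3 and 386.7 footprints per kilobase of coding sequence per 1000000 coding footprints in the 2 libraries, followed by G3BP1 with 319.8 and 306.0. G3BP2 followed with 168.2 and 158.5. The granule scaffold and its activating partner thus sat at the top of the group, clear of the other members and of each other.

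The fragile X family members FXR1 and FMR1 came next at 114.4 ± 11.43 and 113.9 ± 4.958 (SD, n = 2), and their libraries overlapped. TIAL1, an RNA-binding regulator of splicing and translation, averaged 70.48 and UBAP2L, which binds the G3BP proteins, 57.65. The deubiquitinase USP10 averaged 46.81, TIA1 35.93 and ATXN2, the ataxin-2 partner of poly(A)-binding protein, 31.17. Aside from the FXR1 and FMR1 pair, no neighbors in this order overlapped. The same order held in RACK1-Mut, where the range was 12.8-fold and FXR1 and FMR1 again overlapped.

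In siControl cells the first 8 places were the same, but TIA1, at 21.07 and 18.87, was below ATXN2, at 30.18 and 29.37. The range there was 20.26-fold. In siTARG1 cells G3BP1 was the highest member, at 373.2 and 371.3, and CAPRIN1 was next at 272.1 and 263.4. TIA1 rose 2 places in the order, to 68.26 and 58.06, where it overlapped USP10 at 58.99 and 54.64. FMR1 overlapped FXR1, and UBAP2L overlapped TIAL1, so the order within those pairs was not resolved in siTARG1.

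**Figure D1:**
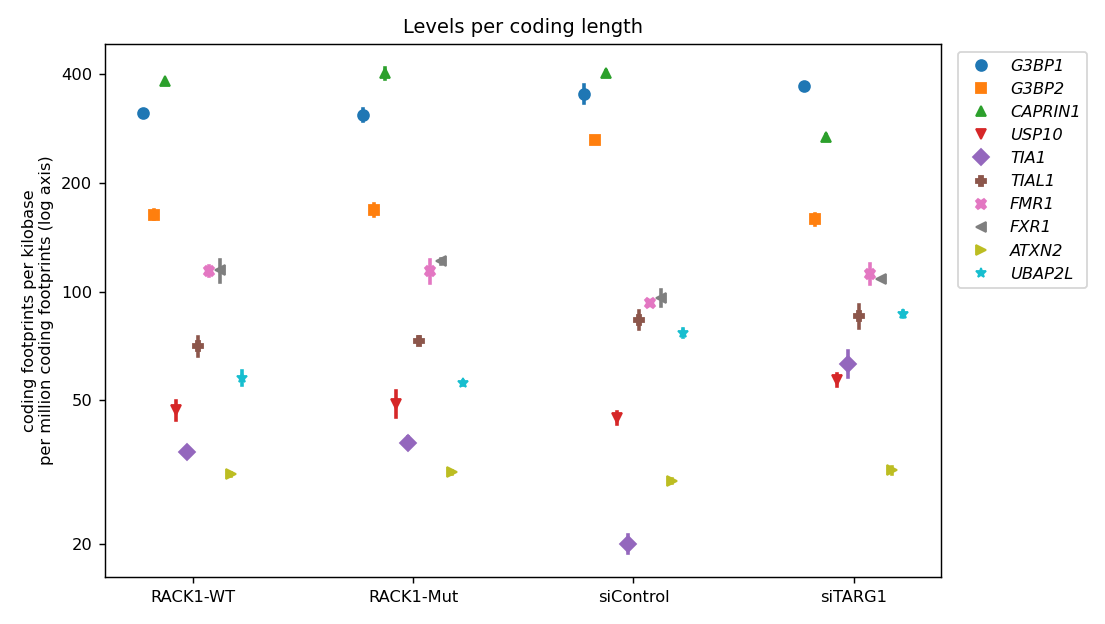
Coding footprints per kilobase of coding sequence per 1000000 coding footprints (log axis) for the 10 nucleators in each of the 4 groups. Each symbol is the mean of 2 libraries and each bar joins the 2 libraries. CAPRIN1 leads in 3 groups and G3BP1 in siTARG1, and TIA1 has its lowest level in siControl.

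Substitution of the RACK1 sites left the footprints of all 10 nucleators within the spread of the libraries. Across the members the log2 fold change of RACK1-Mut over RACK1-WT lay between -0.07 and 0.06, with a median of 0.02 against 0.00 for all 12520 genes tested. DESeq2 called 0 of 10 members at adjusted p under 0.05, against 0.0799% of all genes tested (10 genes, all lower). At an unadjusted p under 0.05 there were again 0 members, against 1.64% of all genes, and edgeR also called 0 members, against 0.24%.

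G3BP1 had 2287 and 2163 normalized footprints in RACK1-WT and 2237 and 2080 in RACK1-Mut. Each RACK1-Mut library was thus close to the RACK1-WT libraries, and the change was -0.04 (SE 0.0822, 95% interval -0.20 to 0.12, DESeq2 adjusted p = 1). CAPRIN1 had 4100 and 4141 against 4120 and 4426, a change of 0.05 with an interval from -0.09 to 0.19. G3BP2 had 1244 and 1159 against 1265 and 1173, a change of 0.02 with an interval from -0.17 to 0.21.

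For USP10, the inhibitory partner, the 4 values were 611.4 and 533.5 in RACK1-WT and 539.2 and 638.1 in RACK1-Mut, so the spread within each group exceeded the difference between them. TIA1, the least covered member, had 208.7 and 202.6 against 206.4 and 222.8. Its interval of -0.29 to 0.41 was the widest of the 10, and that of CAPRIN1 was the narrowest. TIAL1, FMR1, FXR1, ATXN2 and UBAP2L had log2 fold changes of 0.03, -0.02, 0.06, -0.01 and -0.07, with SEs of 0.102 to 0.14.

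The libraries of RACK1-WT and RACK1-Mut overlapped for each of the 10 genes, so 0 of 10 were separated, against 37.6% of all genes tested. Differences of this size were not detectable at this depth. RACK1 itself, which in these libraries is the sum of remaining endogenous and re-expressed mRNA, had 23330 and 23590 in RACK1-WT and 17740 and 17270 in RACK1-Mut. RACK1 was called lower (log2 fold change -0.42, SE 0.0601, DESeq2 adjusted p = 1.34e-08), so the groups differed in RACK1 footprints as well as in its sequence. Without RACK1-Mut 1 or without RACK1-Mut 2 that call was lost, at adjusted p = 0.102 and 0.265 with changes of -0.44 and -0.40.

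Of the 10 nucleators, 3 were called in siTARG1 against siControl, with 1 higher and 2 lower. The share over all 12056 genes tested was 16.4% (7.18% higher and 9.19% lower). The labels name no second OARD1 siRNA and no rescue, so loss of TARG1 and other effects of the siRNA cannot be told apart. CAPRIN1 and G3BP2 fell and TIA1 rose, while G3BP1 and TIAL1, the paralogs of G3BP2 and TIA1, were not called. The median over the 10 members was 0.07 on the log2 scale, against 0.00 over all genes tested. Some low-count genes had no adjusted p and count as not called in the shares of all genes, whereas every member had one. The median size of change of the members was 0.15, against 0.33, and their median SE 0.121, against 0.284. Smaller SEs ease calls, so the shares called are not compared at equal precision. The libraries of siControl and siTARG1 did not overlap for 7 of 10 members, against 62.6% of all genes.

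G3BP2, the second G3BP scaffold, had 1391 and 1432 normalized footprints in siControl and 778.3 and 842.3 in siTARG1. Both knockdown libraries were far below both controls, and the fitted change was -0.80 (SE 0.0993, 95% interval -1.0 to -0.61, DESeq2 adjusted p = 6.01e-14), or 57.41% of the control mean. G3BP1 had 1729 and 1933 in siControl and 1831 and 1840 in siTARG1. The G3BP1 knockdown libraries lay between the controls, and its change of 0.01 had an interval of -0.17 to 0.18 (DESeq2 adjusted p = 0.983).

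CAPRIN1, the partner that promotes G3BP condensation, had 3137 and 3215 in siControl and 2023 and 1978 in siTARG1. It fell to 63.00% of the control mean (log2 fold change -0.67, SE 0.0744, DESeq2 adjusted p = 4.56e-17). USP10, its competitor for G3BP, had 381.4 and 412.4 in siControl against 497.8 and 465.6 in siTARG1. The groups did not overlap, but the change of 0.28 (SE 0.142) did not pass in DESeq2 (adjusted p = 0.171) and did in edgeR (adjusted p = 0.0336). With edgeR, 4 of 10 members were therefore called, against 28.8% of all genes, and 4 of 10 had an unadjusted p under 0.05 in DESeq2, against 26% of all genes.

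TIA1, an RNA-binding protein whose prion-like domain drives granule assembly, had 87.89 and 78.67 in siControl and 269.7 and 231.7 in siTARG1. This was a 3.01-fold rise (log2 fold change 1.59, SE 0.232, DESeq2 adjusted p = 4.59e-10) in the member with the fewest counts, 66 to 324 per library. TIAL1 had 368.3 and 327.8 in siControl and 362.1 and 316.0 in siTARG1. Its groups overlapped, and its change was -0.04 with an interval of -0.36 to 0.28.

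Of the remaining members, FMR1, a translational regulator lost in fragile X syndrome, had 656.5 and 647.3 in siControl and 792.4 and 704.0 in siTARG1. Its change of 0.20 did not pass (DESeq2 adjusted p = 0.27). FXR1 and UBAP2L each had a log2 fold change of 0.10 with an upper limit of 0.34 and 0.30, and their groups were separate but not called. ATXN2 had 360.4 and 350.5 against 369.6 and 356.5, a change of 0.03.

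The calls of CAPRIN1, G3BP2 and TIA1 held with each of the 4 libraries left out in turn, with log2 fold changes of -0.69 to -0.64, -0.85 to -0.74 and 1.47 to 1.70. Footprints count ribosomes on an mRNA, and matched total RNA was not analysed here, so a change in mRNA level and a change in translation cannot be told apart. In bulk libraries, fewer cells with the mRNA and less of it per cell cannot be told apart either.

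**Figure D2:**
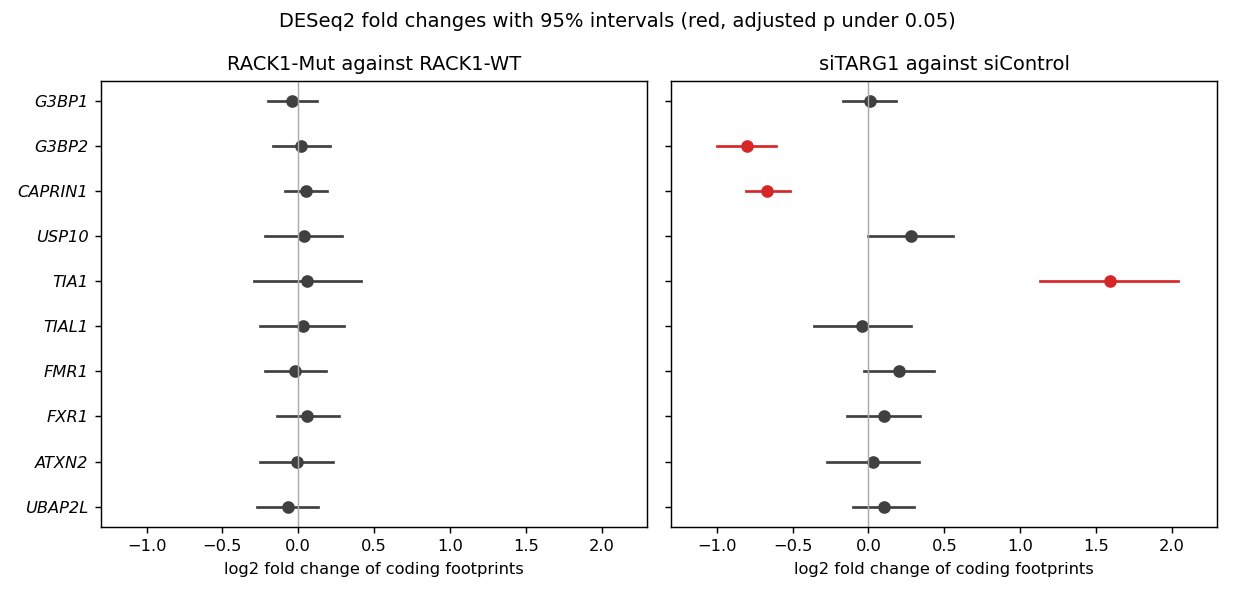
Log2 fold change of coding footprints for the 10 nucleators (DESeq2, 4 libraries per comparison), with 95% intervals, in RACK1-Mut against RACK1-WT (left) and siTARG1 against siControl (right). Points in red passed adjusted p under 0.05. The left panel has no red point and its points lie between -0.07 and 0.06, and the right panel has CAPRIN1 and G3BP2 below 0 and TIA1 above it.

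Whether the 2 perturbations changed a member differently was tested in 1 fit of all 8 libraries. The siTARG1 change minus the RACK1-Mut change was called for 3 of 10 members, against 12.3% of the 12955 genes tested, with 1 higher (5.43% of all) and 2 lower (6.91%). The same count of 3 held by edgeR (20.8% of all) and at an unadjusted p under 0.05 (22.3%). It was -0.82 for G3BP2 (SE 0.126, DESeq2 adjusted p = 5.26e-09), -0.71 for CAPRIN1 (SE 0.0914, adjusted p = 9.17e-13) and 1.53 for TIA1 (SE 0.265, adjusted p = 3.42e-07). For G3BP1 it was 0.06 (SE 0.112, adjusted p = 0.817), and for the other 6 members it lay between -0.06 and 0.25 and was not called.

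Ratios taken within a library do not depend on its scaling, and they show how the paralogs moved relative to each other. G3BP1 exceeded G3BP2 per coding length by 1.285 and 1.397 in the siControl libraries and by 2.434 and 2.259 in siTARG1. TIAL1 exceeded TIA1 by 4.19 and 4.167 in siControl and by 1.343 and 1.364 in siTARG1. The levels of the G3BP pair thus moved apart and those of the TIA pair came closer, with the libraries of a group close together in both ratios.

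CAPRIN1 stood above G3BP1 in siControl, by 1.197 and 1.097, and below it in siTARG1, at 0.7292 and 0.7095 of its level. The FMR1 and FXR1 pair stayed near 1, with a ratio of group means of 0.967 in siControl and 1.031 in siTARG1. With 2 libraries against 2, an exact permutation test cannot go below p = 0.33, so these ratios carry no test of their own.

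**Figure D3:**
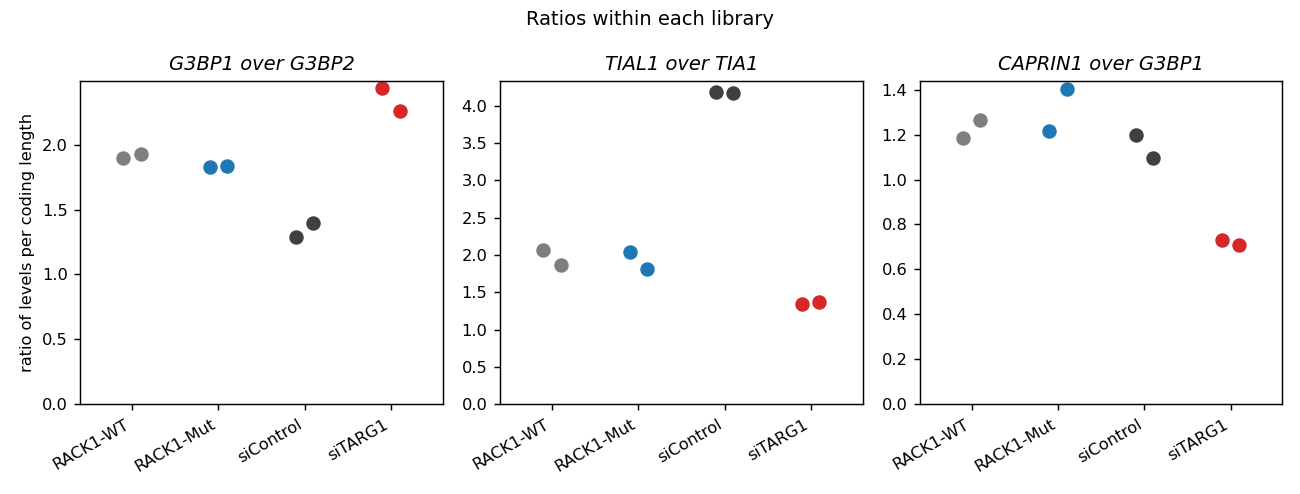
Ratio of the levels per coding length of G3BP1 over G3BP2, TIAL1 over TIA1 and CAPRIN1 over G3BP1, with a point for each of the 8 libraries. In siTARG1 the first ratio is at least 2.259 and the second at most 1.364, and the third falls under 1 in siTARG1 alone among the groups.

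With all 8 libraries scaled together, the RACK1 libraries set the siRNA groups in context. TIA1 was 171.4 to 187.6 in the 4 RACK1-WT and RACK1-Mut libraries, between siControl (102.4 and 91.72) and siTARG1 (314.5 and 270.2). G3BP2 was 979.8 to 1068 in the RACK1 libraries, 1621 and 1669 in siControl and 907.5 and 982.6 in siTARG1. The siTARG1 level of G3BP2 was thus near that of the RACK1 libraries, and siControl was the group that stood above the other 3.

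CAPRIN1 showed another pattern, with 3472 to 3726 in the RACK1 libraries, 3654 and 3748 in siControl and 2359 and 2307 in siTARG1, the group that stood below the other 3. The RACK1 and siRNA libraries did not overlap for UBAP2L, G3BP1, TIAL1 and FXR1. The nearest libraries were close for TIAL1 (364.6 against 368.6) and FXR1 (776.7 against 767.4). How many of all genes separate in this way was not computed, so the separation is not read as a trait of these members. UBAP2L was at 756.9 to 848.3 in the RACK1 libraries and 1053 to 1186 in the siRNA libraries. ATXN2 varied least, with a highest library 1.075 times the lowest. The experiments differed in cell line derivation, treatment and library set, and these cannot be told apart for any difference between them.

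**Figure D4:**
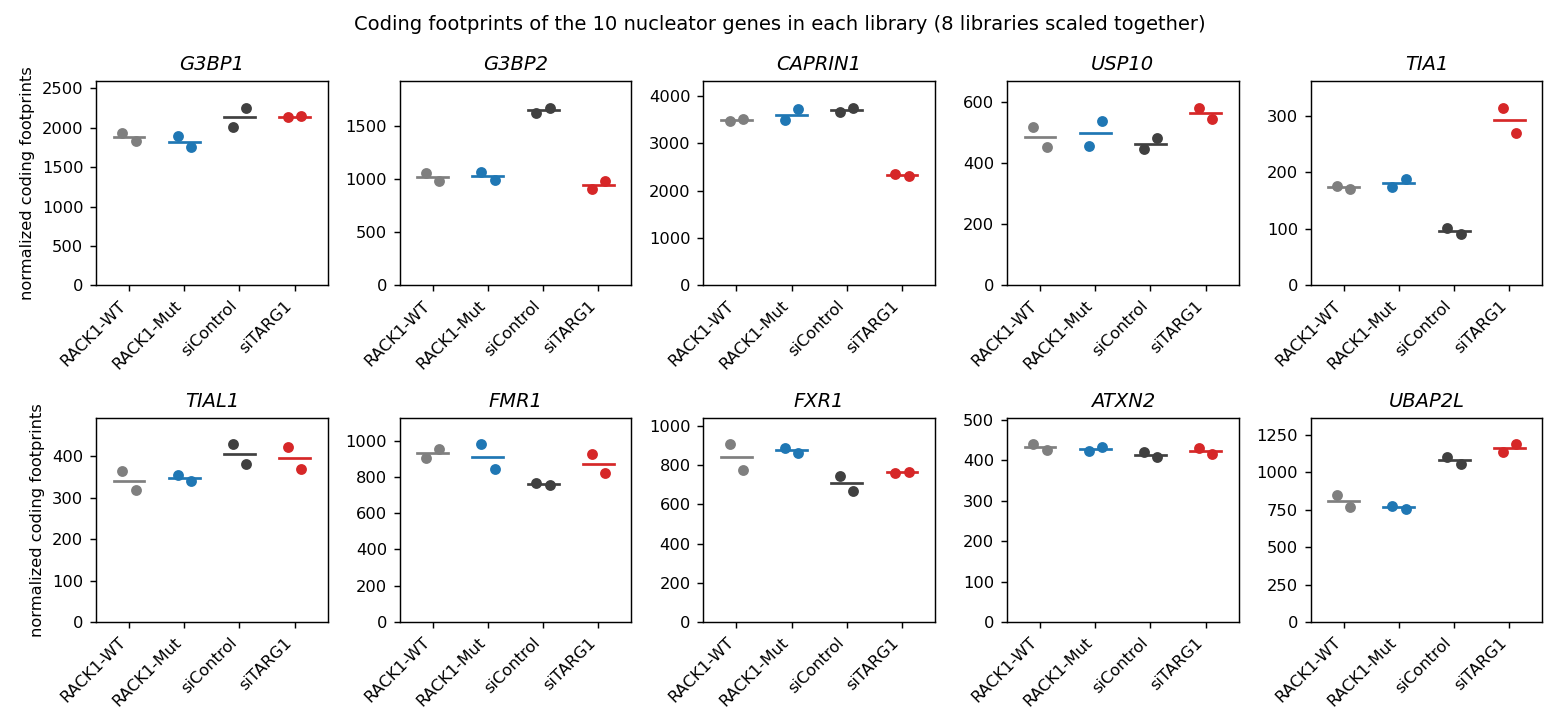
Normalized coding footprints of each nucleator in each library, with the 8 libraries scaled together and each axis starting at 0. Points are libraries and lines are group means of 2 libraries. G3BP2 is highest in siControl, CAPRIN1 lowest in siTARG1, and TIA1 lowest in siControl and highest in siTARG1.

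The 3′ untranslated regions (UTRs) of the members were searched for short words carried by the genes that moved. All 16384 words of 7 bases were ranked by how much more often they occurred in the 3′ UTRs of genes called lower (or higher) in siTARG1 than in those of genes not called. The ranking used the same comparison as the calls, so the shares are descriptions with no test. For the called-lower genes the first word was TGAACAT, in 31.7% of 1090 such genes, 13.7% of 8964 genes not called and 11% of 857 called higher, and the next was GAACATA, which overlaps it by 6 bases.

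For the called-higher genes the first word was TGAATAT, in 39.3% of called-higher genes, 19.1% of genes not called and 20% of those called lower. The next was GAATATA, again overlapping by 6 bases. The words were searched on the mRNA strand alone. Longer 3′ UTRs hold more words, and the shares are not corrected for length. The median length was 1837 bases in called-higher genes, 1537 in called-lower genes and 1312 in genes not called. Over all 10911 genes ranked, TGAACAT was in 15.3% and TGAATAT in 20.7%. In the 2517 genes with 3′ UTRs of 2000 to 4000 bases, close to those of CAPRIN1 and TIA1, the shares were 22.2% and 31.5%, and GAATATA was in 23.1%.

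Of the called members, CAPRIN1 held TGAACAT 1 time, at base 1696 of its 3′ UTR (GENCODE on GRCh37, chr11:34122599-34122628, plus strand), and TIA1 held GAATATA 1 time, at base 1096 (chr2:70438737-70438766, minus strand). G3BP2 held neither pair of words in its 2648 bases. Members that were not called also held them: TIAL1 held TGAACAT (chr10:121334958-121334987, minus strand), UBAP2L held TGAATAT (chr1:154243185-154243214, plus strand), and G3BP1, with a 3′ UTR of 8694 bases, held 1 of each (chr5:151186244-151186273 and chr5:151187560-151187589, plus strand). The sites are shown 5′ to 3′ as 30 bases of the 3′ UTR with the word in capitals, so that the called members can be set beside the uncalled ones.
CAPRIN1, called lower: ggataggctgtTGAACATtccacattcaaa
TIAL1, not called: catgatggataTGAACATgatttttcttta
G3BP1, not called: gctcatcacatTGAACATtttcagatttta
TIA1, called higher: tgtatgtaaagGAATATAttaatttgccgt
UBAP2L, not called: aaatggcgtcaTGAATATgaacagcattgt
G3BP1, not called: cagcatttattTGAATATcaggttttagct
The 6 sites thus fell in 2 called and 3 uncalled members, and USP10, FMR1, FXR1 and ATXN2 held none of the 4 words in the 3′ UTR searched. The part of these words in the changes of CAPRIN1 and TIA1 was not tested.

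Footprints outside the coding sequence were few. The share of a member's footprints in its 5′ UTR had a median over the 8 libraries of 1.53% for G3BP1, 1.831% for G3BP2, 1.056% for CAPRIN1 and 0.1016% for UBAP2L, against 3.85% to 4.342% over all genes in a library. TIA1 was the member with a median above that range, at 4.623%, and ATXN2 had 1 such footprint in the 8 libraries. Initiation upstream of the start codon leaves footprints there. The all-gene values pool the counts of a library, whereas a member's value is for a single gene. Neither is corrected for 5′ UTR length, which ran from 45 bases (TIAL1) to 882 (G3BP2). Per base, relative to the coding sequence, TIAL1 had 0.315 and 0.3806 in RACK1-WT and TIA1 had 0.2725 and 0.2175. In siControl TIAL1 had 0.2991 and 0.09115 and TIA1 had 0.3923 and 0.2972. The shares therefore do not rank the members by upstream initiation.

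In RACK1-Mut against RACK1-WT the 5′ UTR shares did not overlap for 2 of 10 members, FMR1 and USP10, against 27.7% of all genes. In siTARG1 against siControl they did not overlap for 4 of the 9 members with such a footprint, against 28.8%. G3BP1 had 1.648% and 1.811% in siControl and 1.12% and 0.7855% in siTARG1. TIA1 had 7.407% and 5.714% in siControl, from 8 and 4 footprints, and 3.274% and 3.704% in siTARG1.

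For G3BP1 the most distant pair was siControl 2, with 30 of 1657 footprints, and siTARG1 2, with 13 of 1655. Their exact 95% binomial intervals, 1.225% to 2.575% and 0.4189% to 1.339%, overlapped. Overlap of separate intervals does not show that shares agree within counting error, and the difference was not tested. FMR1 and FXR1 were the other 2 members without overlap, each with higher shares in siTARG1 from at most 14 footprints a library. In the 3′ UTR, G3BP1 had 3 to 9 footprints per library over 8694 bases, at most 0.3625% of its total, and FXR1 had at most 1 over 6461 bases.

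Some coding sequence is not unique, which matters because reads with up to 64 alignments were kept. Of the 28-base words in the coding sequence, 41.4% in USP10, 14.5% in G3BP1 and 7.94% in FXR1 also occur in transcripts of other annotated genes, for G3BP1 including the pseudogene G3BP1P1. Values of these 3 members could include reads from those genes. Reads with more than 1 alignment were not counted here, so the shares of words do not give the size of any error. The shares were 0% in G3BP2, CAPRIN1 and UBAP2L and at most 1.14% in the others, and TIA1 and TIAL1 share 1 such word.

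Genes of other proteins followed by the study were read in the same comparisons. EIF3B, the eIF3 subunit used as a granule marker, had 569.5 and 486.3 in siControl and 342.1 and 380.1 in siTARG1 (log2 fold change -0.55, DESeq2 adjusted p = 0.0022). That call was lost without siControl 1 (-0.44), siTARG1 1 (-0.47) or siTARG1 2 (-0.62). The 40S protein gene RPS6 had a change of -0.05 and was not called. RACK1 was called at -0.25 (adjusted p = 0.00297), and lost the call without siControl 2 (-0.21) or siTARG1 1 (-0.17). PARP14, a MARylating enzyme, was called at 0.25 (adjusted p = 0.0426) and lost the call without siControl 2, at 0.11, or without either siTARG1 library, at 0.25 and 0.26. It also lost the call with exon counts (adjusted p = 0.0543). In RACK1-Mut, EIF3B, RPS6 and PARP14 had changes of -0.04, 0.04 and -0.05 with adjusted p = 1.

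Genes around the nucleators were taken from 6 lists of 106 genes, covering partners, other granule proteins, clearance, eIF2 signaling, the cap-binding complex and processing bodies. In RACK1-Mut 0 of 102 tested were called by DESeq2, against 0.0799% of all genes, with 2 at an unadjusted p under 0.05, against 1.64%. The largest change there was that of ANG, at 0.82, a gene with at most 6 counts in a library. In siTARG1 the listed genes had a median SE of 0.134, against 0.284 over all genes tested. Their median size of change was 0.21, against 0.33. Smaller SEs ease calls, so the shares called are not compared at equal precision. Of 101 tested in siTARG1, 29 were called, against 16.4% of all genes. There were 11 higher (7.18% of all genes) and 18 lower (9.19%), with a median of -0.01. The lists are small, and the counts that follow are descriptions to be read against these shares. Of these, 9 kept the call with every library left out (BAG3, CNBP, DCP2, EIF4B, EIF4EBP1, LSM14B, NUFIP2, PABPC4 and STAU1).

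Among paralogs and direct partners of the nucleators, 8 of 19 were called in siTARG1, against 16.4% of all genes, with 3 higher and 5 lower (7.18% and 9.19% of all genes). PABPC4, a cytoplasmic poly(A)-binding protein, rose from 307.6 and 275.4 to 556.8 and 536.4 (log2 fold change 0.90), while PABPC1, the major form, fell by 0.34 on the log2 scale. NUFIP2, which binds FMR1 and G3BP proteins, rose by 0.85 and ATXN2L, the ataxin-2 paralog, by 0.32. FAM98A changed by -1.13, STRAP by -0.58 and CYFIP1, the FMR1-binding subunit of the WAVE complex, by -0.31. The calls of PABPC1, ATXN2L, FAM98A, STRAP and CYFIP1 were each lost with at least 1 library left out.

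Among other RNA-binding proteins of granules, 6 of 26 were called, against 16.4% of all genes, 5 of them lower. STAU1, a double-stranded RNA-binding protein that counters granule assembly, had 948.3 and 896.4 in siControl and 440.3 and 484.7 in siTARG1 (log2 fold change -1.0, DESeq2 adjusted p = 8.82e-15). CNBP changed by -0.60, IGF2BP2 by -0.66, the helicase DDX3X by -0.44 and EWSR1 by -0.29, and CELF1 was the member that rose, by 0.45. In the clearance list 4 of 17 were called, against the same 16.4%, with the chaperone partner BAG3 at -0.81, the autophagy receptor SQSTM1 at -0.36, HSPA8 at -0.29 and the autophagy kinase ULK1 at 0.65.

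In the eIF2 list 3 of 17 were called, a share near the 16.4% of all genes. EIF2AK4, the amino acid sensing kinase GCN2, was at 0.93, the exchange factor subunit EIF2B2 at -0.60 and the phosphatase subunit PPP1CC at -0.53. In the cap-binding list 2 of 10 were called, also near the 16.4% of all genes, EIF4EBP1, the repressor of eIF4E, and EIF4B. EIF4EBP1 fell from 736.5 and 622.2 to 171.5 and 165.3 (log2 fold change -2.01, DESeq2 adjusted p = 5.97e-34), and EIF4B rose by 0.55. EIF4A1, named here outside the rule for named genes, was not called (-0.38), but its region also holds SENP3 transcripts. Under other settings its change ranged from -0.74 to -0.37, and at least 1 of them called it.

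Processing bodies hold the decapping machinery and dock with stress granules. Of their 12 core genes 6 were called, against 16.4% of all genes, with 4 higher and 2 lower (7.18% and 9.19% of all genes). DCP2, the decapping enzyme, rose from 29.88 and 48.87 to 225.6 and 265.4 (log2 fold change 2.67, DESeq2 adjusted p = 1.2e-18). EIF4ENIF1 was at 0.70, EDC4 at 0.37, LSM14A at 0.33, LSM14B at -1.09 and the helicase DDX6 at -0.48. LSM14A and LSM14B are a further paralog pair with called changes of opposite sign, but the LSM14A call (adjusted p = 0.0233) was lost with a library left out, at an adjusted p of up to 0.419. The genes IGF2BP2, DDX3X, EWSR1, SQSTM1, HSPA8, ULK1, EIF2AK4, EIF2B2, PPP1CC, EIF4ENIF1, EDC4, LSM14A and DDX6 are named outside the rule for named genes, after their values were seen, so that the calls of each list can be read in full.

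**Figure D5:**
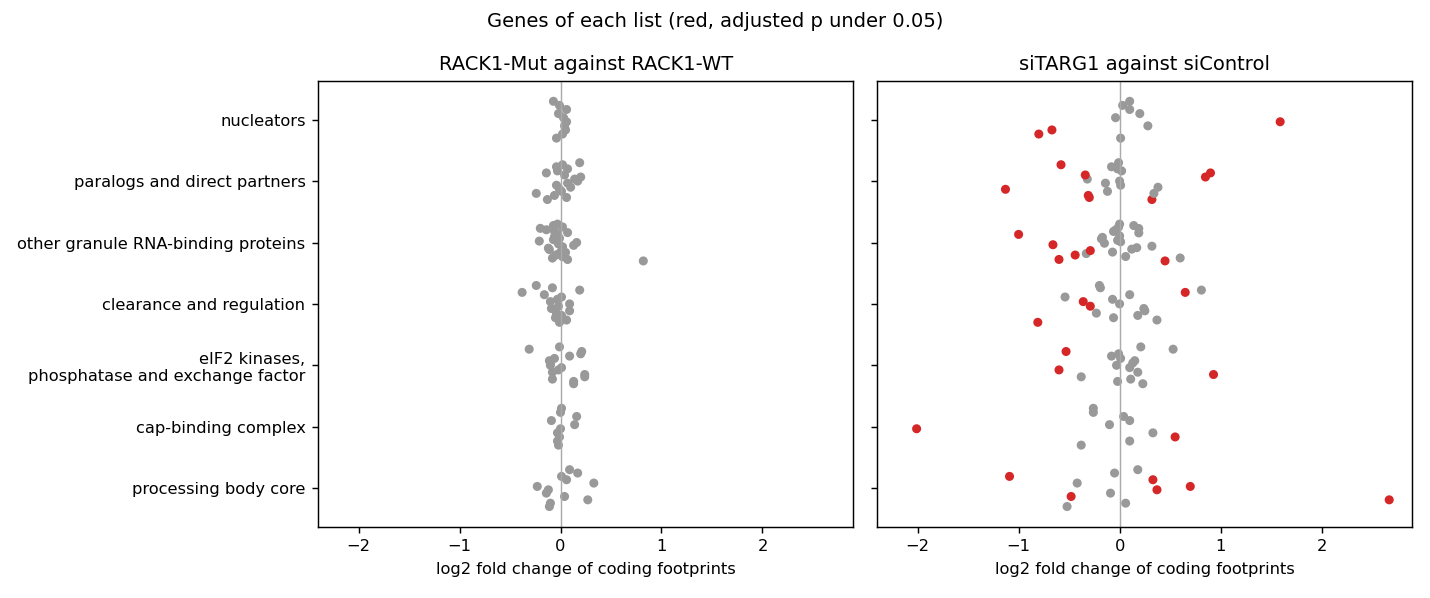
Log2 fold change of coding footprints for the nucleators and the genes of the 6 surrounding lists in RACK1-Mut against RACK1-WT (left) and siTARG1 against siControl (right). Each point is a gene and red points passed adjusted p under 0.05 in DESeq2. The left panel has no red point, and the right panel has 3 among the nucleators and 29 among the other lists, on both sides of 0.

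The genes whose footprints tracked G3BP1 most closely over the 8 libraries, among 6717 with a mean of at least 100 normalized footprints, were CD99 (Pearson r = 0.975), DPH5 (0.973) and PIK3C3 (0.973). Of the other nucleators, UBAP2L was the closest at 0.882 and FXR1 the most opposed at -0.733, with G3BP2 at 0.42 and CAPRIN1 at -0.473. G3BP1 was at 1751 to 1937 normalized footprints in the RACK1 libraries and 2014 to 2254 in the siRNA libraries. CD99, DPH5 and PIK3C3 were likewise lower in every RACK1 library than in any siRNA library, so the offset between the experiments enters each r. The 8 points comprise 4 groups of 2 libraries from 2 experiments, so these values describe the libraries and carry no p-value.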

How the data were processed

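Per the labels and the methods, the authors isolated RNase I-protected fragments of 28 to 34 bases, ligated linkers with molecular identifiers, removed rRNA reads (Bowtie 1.1.2) and aligned to hg19 (GRCh37) transcripts with TopHat2 2.1.1, keeping reads with up to 64 hits. Whether duplicates were collapsed is not given in the sources used here. What the authors deposited are raw counts of footprints per merged gene region (GENCODE, Plastid), split into coding sequence and UTRs. The headers state reads of 26 to 36 bases and an offset of 14 from the 5′ end, whereas the methods state 12 from the 3′ end. The deposited RPKM columns were not used.

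Here, transcript identifiers were matched to symbols with GENCODE on GRCh37 (97.4% of 20165 regions). Coding counts with a sum of at least 10 were tested in DESeq2 1.42.0, the test the methods name. Settings were the Wald test, median-of-ratios scaling and Benjamini-Hochberg adjustment after the default DESeq2 filter on mean count, with calls at adjusted p under 0.05. That filter left some low-count genes in siTARG1 without an adjusted p, for example the endothelial marker VWF. Shares of all genes tested count such genes as not called. Fits used the 4 libraries of a comparison, and all 8 for the difference of the changes. Normalized footprints are counts divided by the size factors of that fit. Intervals of the fold changes were built from the DESeq2 SE, which includes the estimated spread between libraries. The binomial intervals of the UTR shares cover counting error only. The code was tested on simulated data. Alternatives were edgeR 4.0.16 quasi-likelihood with TMM, TMM in DESeq2, other count filters, exon counts, a replicate block, all libraries in 1 fit, and each library left out. The members, lists and named genes were chosen with earlier results of these data known. Named genes were the 10 members, 5 study proteins, up to 5 called genes per direction over the wider lists by adjusted p, every called partner except 1 that is not reported here, and the 3 genes most like G3BP1. Other called genes of the lists, 13 in all, were named after their values were seen. Word searches and the sharing of 28-base words used the longest 3′ UTR and coding sequence per gene.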

Additional observations from a re-analysis of the deposited data

Results flagged for a closer look

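The change under TARG1 depletion differed from the change under the RACK1 site substitution, by a DESeq2 contrast in 1 fit of all 8 libraries, for 3 nucleators and 2 other study genes. On the log2 scale the difference was -0.82 for G3BP2, -0.71 for CAPRIN1 and 1.53 for TIA1, and in each case the RACK1-Mut change alone was at most 0.06 in size. These 3 differences passed under every alternative run, with a highest adjusted p of 0.000487 (TIA1). For OARD1, the target of the siRNA, the difference was -3.81. For EIF3B it was -0.51 (adjusted p = 0.0237), and that call was lost without RACK1-WT 1 or 2, RACK1-Mut 2, siControl 1 or siTARG1 1, and with the replicate block (adjusted p = 0.147). The cause of these differences was not tested.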

How the results depend on the processing

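The count of nucleators called was 0 of 10 in RACK1-Mut and 3 of 10 in siTARG1 and in the difference of the changes under every alternative run, except that edgeR called 4 in siTARG1. For RACK1-Mut with all 8 libraries in 1 fit, 6 of the 10 had no adjusted p and could not be called. In that fit 0 members had an unadjusted p under 0.05. The replicate numbers did not pair the libraries (correlation of deviations 0.083 in the RACK1 and 0.031 in the siRNA experiment). With the replicate block the genes called were 6 in RACK1-Mut, 1125 in siTARG1 and 878 in the difference, against 10, 1974 and 1598 without it, and no nucleator changed its call. The block ended the call of PARP14 in siTARG1 (adjusted p = 0.102) and that of EIF3B in the difference (adjusted p = 0.147). edgeR called 30, 3470 and 2695. With 1 library left out, counts fell to 1 to 3, 564 to 744 and 887 to 1134, and those of the surrounding lists in siTARG1 from 29 to between 11 and 15 (12 and 15 without siControl 1 and 2, 11 and 15 without siTARG1 1 and 2), where the arm left with 1 library is assumed to vary like the other.

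Read over exons, which include UTRs with few footprints, the ratio of the highest to the lowest member was 15.63 in RACK1-WT, 15.69 in RACK1-Mut, 29.07 in siControl and 6.275 in siTARG1, and the siTARG1 change of G3BP1 was -0.0027. Changes near 0 that were not called turned sign with 1 library left out. In RACK1-Mut they ranged from -0.10 to 0.01 for G3BP1, -0.04 to 0.07 for G3BP2, -0.09 to 0.15 for USP10, -0.06 to 0.13 for TIAL1, -0.13 to 0.08 for FMR1, -0.04 to 0.18 for FXR1, -0.03 to 0.02 for ATXN2, -0.14 to 0.0026 for UBAP2L, -0.13 to 0.04 for EIF3B and -0.04 to 0.12 for RPS6. In siTARG1 they ranged from -0.08 to 0.08 for G3BP1, -0.14 to 0.06 for TIAL1 and -0.10 to 0.01 for RPS6. For the difference they ranged from -0.03 to 0.14 for G3BP1, -0.17 to 0.04 for TIAL1, -0.07 to 0.15 for FXR1 and -0.16 to 0.00078 for RPS6.

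Depth limited TIA1 most, and 2 libraries per group limit every interval given.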
